A study of Mus musculus with 13 samples.

Results

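The oogenesin (Oog) and oocyte-specific homeobox (Obox) families are 2 groups of closely related mouse genes named for their expression in oocytes. The members described here are Oog1, Oog2, Oog3 and Oog4, and Obox1, Obox2, Obox3, Obox5 and Obox6. They were found by matching the Ensembl identifiers of the count tables to gene symbols, and the 9 members are 9 of 22442 genes listed. Ribosome-protected fragments (RPFs, short RNA pieces kept from RNase I digestion by the ribosome on them) were counted on the coding sequence (CDS) of each gene in 11 libraries. How far these counts can be read depends on the depth of a library, on its content of oocyte mRNA and on the share of a member's CDS that no other gene carries.

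The Ribo-seq libraries came from germinal vesicle (GV) oocytes, 3 of wild type (WT) and 3 of Nat10-ZcKO, and from metaphase II (MII) oocytes, 2 of WT and 3 of Nat10-ZcKO. Nat10 encodes the acetyltransferase that writes N4-acetylcytidine (ac4C) on RNA. In Nat10-ZcKO females 1 Nat10 allele is null and the other is floxed, and Zp3-Cre, which is active in growing oocytes and not in the surrounding granulosa cells, removes it. The mice were on a C57BL/6J background. GV oocytes were taken from juvenile females primed with PMSG, and MII oocytes were ovulated after PMSG and hCG and freed of cumulus cells with hyaluronidase. Every library was a pool of oocytes, and the methods speak in general of biological triplicates without saying which libraries came from separate animals, so p-values measure the spread between these libraries, which may be technical. The design note of the series mentions 3 days of tamoxifen, whereas Zp3-Cre is not an inducible driver. In addition, acRIP-seq gave 1 library with an anti-ac4C antibody and 1 with anti-IgG from WT GV oocytes, without replicates.

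Obox genes encode homeodomain transcription factors and lie in a cluster on mouse chromosome 7. Obox1, Obox2, Obox5 and their relative Obox7 are known as maternal members, Obox3 as a member switched on in the early embryo, and Obox6 from later embryos and reprogramming cells. Oogenesins are leucine-rich repeat proteins of the PRAME family, and their mRNAs accumulate in growing oocytes. During meiotic maturation transcription is silent, and RPFs on an mRNA then depend on the stored message and on its recruitment to ribosomes. One known route of recruitment runs through the cytoplasmic polyadenylation element (CPE) in the 3′ UTR, which CPEB proteins bind near the polyadenylation signal.

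In the GRCm38 build with GENCODE M21 annotation, Oog1 lies on chr12:87602688-87608850 (plus strand), Oog2 on chr4:144190719-144196934 (plus), Oog3 on chr4:144157557-144162663 (minus) and Oog4 on chr4:143437164-143450324 (minus). Obox2 lies on chr7:15388721-15398545 (plus), Obox1 on chr7:15388948-15556866 (plus), Obox3 on chr7:15479825-15639902 (minus), Obox5 on chr7:15750131-15759800 (plus) and Obox6 on chr7:15833241-15839678 (minus). The annotated span of Obox1 runs over 9598 bases of Obox2 and over 77042 bases of Obox3 on the opposite strand, but the coding bases of these genes overlap by 0.

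Obox1, Obox2 and Obox5 are so alike that short reads on them are hard to assign, and the following CDS stretches are shown for that reason. They start at base 4 and end at base 63 of each CDS, they are given 5′ to 3′ from the GRCm38 reference, and capitals mark the positions at which the 3 genes are not identical.
Obox1: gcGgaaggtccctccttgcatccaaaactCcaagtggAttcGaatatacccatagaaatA
Obox2: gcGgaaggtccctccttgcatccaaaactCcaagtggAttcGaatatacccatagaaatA
Obox5: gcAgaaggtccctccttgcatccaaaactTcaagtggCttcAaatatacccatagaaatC
The stretches lie on chr7:15555165-15555224, chr7:15396848-15396907 and chr7:15757540-15757599, all on the plus strand. Among stretches of 60 bases within 1 coding exon, these held the most differing positions, 5 of 60, and Obox1 and Obox2 differed at 0 of them. Over the 453 CDS bases aligned in all 3 genes, 26 positions differed. Obox1 and Obox2 were identical at 446 of 453 aligned bases (98.45%), Obox1 and Obox5 at 95.59%, and Obox1 and Obox6 at 78.59%. The longest run of bases that Obox1, Obox2 and Obox5 share without a difference is 35 bases long, from base 149 to base 183 of each CDS (chr7:15396993-15397027 in Obox2, plus strand), about the length of 1 footprint.
Obox shared run: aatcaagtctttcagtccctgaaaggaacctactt
The oogenesins are further apart, with pairwise CDS identity from 75.07% (Oog2 and Oog4) to 81.41% (Oog1 and Oog3).

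To see what a footprint-sized read can tell apart, each CDS was divided into overlapping windows of 30 bases. Of the windows of Oog1, 1.92% were in no other CDS of the annotation. The share was 36.0% in Oog2, 88.6% in Oog3 and 96.7% in Oog4. Among the Obox genes it was 38.2% in Obox1, 35.4% in Obox2, 60.2% in Obox5, 86.9% in Obox3 and 98.4% in Obox6. Windows that were also found at most once in the genome came to 23.5% in Obox3 and to 82.1% in Obox6. Obox1 shared 36.5% of its windows with Obox2, and Obox2 shared 50.2% of its windows with Obox1. Oog1 shared 97.9% of its windows with Gm2042 and 79.2% with Gm10436, and Oog2 shared 64.0% with Gm13084. How the counting treated a read that matched several genes is not given in the sources used here. Levels of Oog1, Oog2, Obox1, Obox2 and Obox5 are therefore uncertain between near copies, and the part of unassigned reads in the low counts on Oog1 and Obox3 was not tested.

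**Figure D1:**
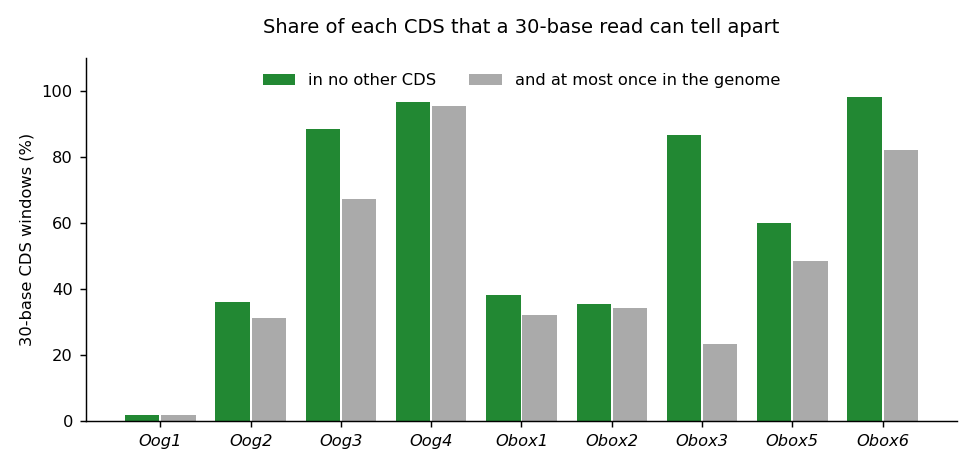
The bars give, for each member, the percent of 30-base windows of its CDS that are in no other CDS (green), and of these also at most once in the genome (grey). Oog1 is at 1.92%, Obox1 and Obox2 are below 40%, and Oog4 and Obox6 are above 80% by both measures.

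The depth of the Ribo-seq libraries was low, at 4815 to 279464 counts in total, and 3 libraries stood apart from the rest. They were Nat10-ZcKO GV replicates 1 and 2 (42360 and 51709 counts) and WT MII replicate 2 (4815 counts). A list of 15 oocyte markers, among them Padi6, Nlrp14, Zp2 and Zp3, was checked in each library. In the other 8 libraries 15 of 15 markers had a count. Of the 3 that stood apart, Nat10-ZcKO GV replicate 1 had a count on 5 markers, replicate 2 on 14 and WT MII replicate 2 on 1. The list held 6.99% to 9.58% of the counts in WT GV and 13.4% in Nat10-ZcKO GV replicate 3, while replicates 1 and 2 of the latter were at 0.0283% and 1.85%. Among the MII libraries it held 0.0208% in WT replicate 2 and 1.30% to 1.58% in the others. A list of 15 granulosa and cumulus markers was at 0.170% to 0.50% in the 8 libraries, with 10 to 14 of its genes detected. In the 3 that stood apart it was at 1.06%, 0.294% and 0% in the order above. Nat10 itself had few counts. At GV it was at 55.0, 39.4 and 31.2 CPM (counts scaled to a library total of 1000000) for WT, and at 94.4, 19.3 and 18 CPM for Nat10-ZcKO. The first 2 Nat10-ZcKO values are 4 counts and 1 count in libraries that stood apart. In replicate 2 a limit of 3 counts is 58.0 CPM, so its value cannot be placed below WT. The value of replicate 3, from 5 counts, lies below every WT library, but the lowest WT value, 31.2 CPM, rests on 3 counts, the limit itself. At MII it was at 7.42 and 1038 CPM for WT, from 1 and 5 counts, and at 31.9, 20.4 and 12.5 CPM for Nat10-ZcKO, so the genotypes overlapped at both stages over all libraries. The part of these library differences in the results below was not tested, and the fits and family sums that include the 3 libraries are given with and without them.

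The Obox family carried the larger change of the 2 families. Since these are pools of oocytes with other cells in part, fewer oocytes in a library and less RNA or translation per oocyte cannot be told apart. Its 5 members together held 0.198% to 0.228% of all RPFs in Nat10-ZcKO MII, against 0% to 0.0135% at GV of that genotype. For WT they held 0.142% and 0.0208% in MII replicates 1 and 2, against 0.0261% to 0.0374% at GV. Summed levels were 301 ± 63.5 CPM in WT GV, and in Nat10-ZcKO they were 83.6 ± 73.1 CPM at GV and 2091 ± 162 CPM at MII (SD, n = 3 each), while WT MII replicates 1 and 2 were at 1424 and 208 CPM. The Obox sum of Nat10-ZcKO MII was 25 times that of Nat10-ZcKO GV, and 18.1 times that of Nat10-ZcKO GV replicate 3 alone. In WT the Obox sum of MII replicate 1 was 4.73 times the GV mean. The sum of the 4 Oog members moved less, at 651 ± 65.3 CPM in Nat10-ZcKO MII against 99.2 ± 112 CPM at GV of that genotype and 250 ± 37.4 CPM at GV of WT (SD, n = 3 each), and WT MII replicates 1 and 2 were at 475 and 0 CPM. Oog3 alone held 98.2% to 99.2% of the Oog counts in the Nat10-ZcKO MII libraries. The means of Oog2 and Oog4, from few counts, were lower in Nat10-ZcKO MII (4.17 and 0 CPM) than in Nat10-ZcKO GV (30.5 and 6.01 CPM). The Oog sum of Nat10-ZcKO MII was 6.56 times that of Nat10-ZcKO GV, but 2.96 times that of GV replicate 3 alone, which was at 220 CPM. Obox and Oog sums were of similar size in the WT GV libraries, whereas in the 3 Nat10-ZcKO MII libraries the Obox sum was the larger in each.

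**Figure D2:**
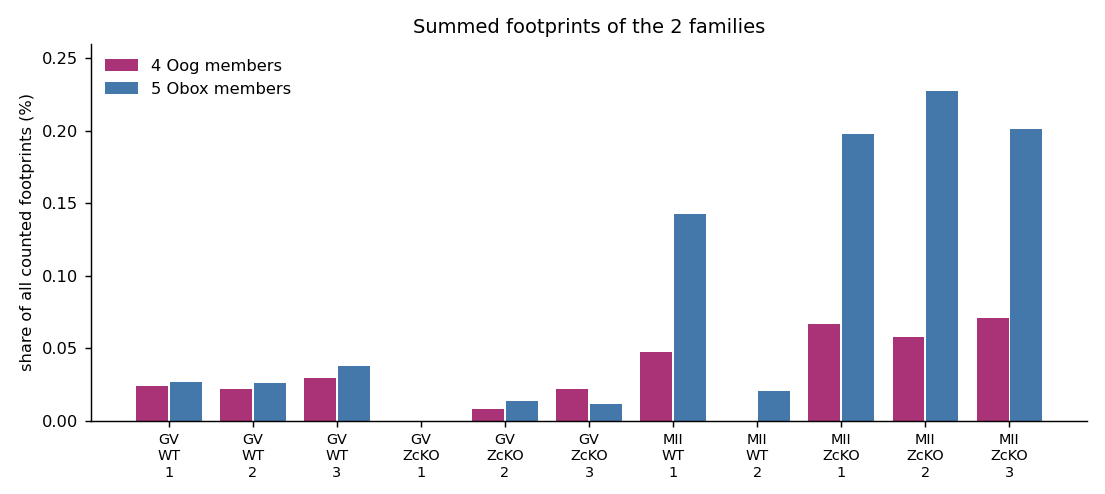
Bars give the percent of all counted RPFs in each of the 11 Ribo-seq libraries that fell on the 4 Oog members (purple) and on the 5 Obox members (blue). The Obox share is 0.198% to 0.228% in Nat10-ZcKO MII and 0.142% in WT MII replicate 1, against at most 0.0374% in any GV library.

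Obox2, a maternal homeodomain factor, had 194, 87 and 162 counts in Nat10-ZcKO MII and 94 and 1 in WT MII. At GV its counts were 0, 1 and 13 for Nat10-ZcKO and 13, 20 and 7 for WT. In CPM this was 1032, 593 and 1014 for Nat10-ZcKO MII and 697 and 208 for WT MII, with 89.4, 71.6 and 72.8 at GV for WT and 0, 19.3 and 46.9 at GV for Nat10-ZcKO. With the exception of WT MII replicate 2, where 1 count gives 208 CPM and 3 counts are 623 CPM, the MII libraries were above every GV library of either genotype. In Nat10-ZcKO, 28.6% of 2225 genes tested had every MII library above every GV library. Over the 8 libraries that did not stand apart, 14.8% of 8094 genes did, and these include genes with as few as 10 counts in all.

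Obox1, its nearest relative, had 120, 195 and 82 counts in Nat10-ZcKO MII and 51 and 0 in WT MII, and at GV 23, 50 and 24 in WT but 0, 0 and 18 in Nat10-ZcKO. The levels at MII were 638, 1329 and 513 CPM for Nat10-ZcKO and 378 and 0 CPM for WT. The levels at GV were 158, 179 and 250 CPM for WT and 0, 0 and 65.0 CPM for Nat10-ZcKO. Nat10-ZcKO MII lay above WT MII replicate 1 and every GV library, and Nat10-ZcKO GV lay below WT GV. The values of 0 at GV come from Nat10-ZcKO replicates 1 and 2, where oocyte markers held 0.0283% and 1.85% of the counts. Fewer oocyte transcripts and less Obox1 cannot be told apart there. The value of 0 in WT MII replicate 2 is no more than a limit and cannot be placed in this order. The share of all genes with this order was not counted, so it is a description only.

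Obox5, another maternal member, was at the edge of detection in GV oocytes, with 3, 3 and 5 counts for WT and 0, 6 and 1 for Nat10-ZcKO. At MII it had 58, 52 and 78 counts for Nat10-ZcKO and 47 and 0 for WT. This put WT at 20.6, 10.7 and 52.0 CPM at GV and 349 and 0 CPM at MII. It put Nat10-ZcKO at 0, 116 and 3.61 CPM at GV and 309, 354 and 488 CPM at MII. With the exception of WT MII replicate 2, the MII libraries were above every GV library, and the highest GV value, 116 CPM, came from a library that stood apart. In Nat10-ZcKO alone, 28.6% of 2225 genes tested had every MII library above every GV library.

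The balance within the family also differed between stages. Of the Obox counts, Obox1 held 59.0%, 68.5% and 66.7% in WT GV and 56.2% in Nat10-ZcKO GV replicate 3, and 26.6% in WT MII replicate 1. In Nat10-ZcKO MII it held 32.3%, 58.4% and 25.5%, so that replicate 2 was at the level of the GV libraries. Obox5 held 4.11% to 13.9% in WT GV and 3.12% in Nat10-ZcKO GV replicate 3, while at MII it held 24.5% in WT replicate 1 and 15.6%, 15.6% and 24.2% for Nat10-ZcKO. The exact (Clopper-Pearson) 95% interval of the Obox5 share in WT GV replicate 2 was 0.856% to 11.5%, below the 18.6% to 31.2% of WT MII replicate 1, whereas those of WT GV replicates 1 (1.62% to 20.9%) and 3 (4.67% to 29.5%) overlapped it. These intervals cover counting error only. Whether and how reads shared between Obox1, Obox2 and Obox5 entered these shares is not given in the sources used here. Since Obox1 and Obox2 share up to 50.2% of their windows, the split of counts between these 2 genes, and any order of the pair given here, depends on how shared reads were counted.

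Obox3, the embryonic member, and Obox6 had 0 counts in each of the 11 Ribo-seq libraries. Over 1526310 counts in all, a count of 0 allows up to 1.97 CPM, taking 3 counts as the limit. For Obox6, most of whose windows are found once in the genome, RPFs were not detectable at this depth. For Obox3 the same count has less weight, because 23.5% of its windows are found at most once.

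Oog3, a PRAME-type leucine-rich repeat protein, was the oogenesin with most RPFs. Its counts at GV were 26, 48 and 26 for WT and 0, 3 and 36 for Nat10-ZcKO, and at MII 60 and 0 for WT and 124, 84 and 111 for Nat10-ZcKO. WT was at 179, 172 and 270 CPM at GV and 445 and 0 CPM at MII. Nat10-ZcKO was at 0, 58.0 and 130 CPM at GV and 660, 572 and 695 CPM at MII. Nat10-ZcKO MII was above WT MII replicate 1, which was above every GV library, and the 0 of WT MII replicate 2 cannot be placed in this order. The share of all genes with this order was not counted, so it is a description only. A less strict order, every Nat10-ZcKO MII above every Nat10-ZcKO GV library, held for 28.6% of 2225 genes tested.

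Oog2 and Oog4 had few counts, most of them in GV libraries. Oog2 counts at GV were 5, 12 and 1 for WT and 0, 1 and 20 for Nat10-ZcKO, and at MII 3 and 0 for WT and 0, 0 and 2 for Nat10-ZcKO. Its highest level, 72.2 CPM, was in Nat10-ZcKO GV replicate 3, and its levels in WT GV were 34.4, 42.9 and 10.4 CPM. In Nat10-ZcKO MII they were 0, 0 and 12.5 CPM, and the last of these was above the lowest WT GV library.
Oog4 counts at GV were 4, 1 and 1 for WT and 0, 0 and 5 for Nat10-ZcKO, and at MII 1 and 0 for WT and 0, 0 and 0 for Nat10-ZcKO. Over the 494389 counts of the Nat10-ZcKO MII libraries, 0 counts allow up to 6.07 CPM, and the WT GV mean was 13.8 ± 12.3 CPM (SD, n = 3).
Oog1 had 1 count in each of Nat10-ZcKO MII replicates 1 and 2 and 0 in the other 9 libraries. Its near copies Gm2042 and Gm10436 had 0 and 8 RPF counts over the 11 libraries, and Gm13023 and C87977, which share 42.6% and 35.2% of its windows, had 115 and 106.

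**Figure D3:**
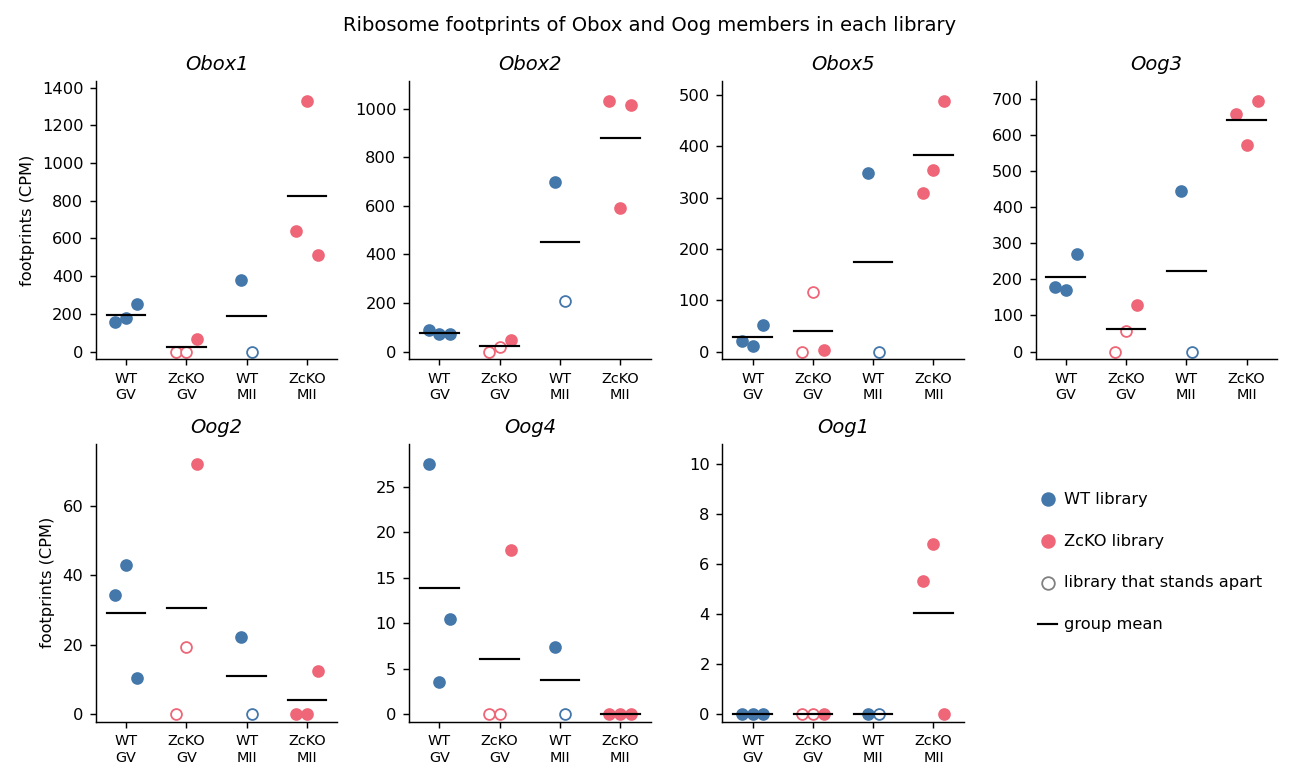
Each point is the level of a member in 1 Ribo-seq library, in CPM on a linear axis, with WT in blue and Nat10-ZcKO in red. Open points are the 3 libraries that stood apart, and black lines are group means. Obox1, Obox2, Obox5 and Oog3 are highest in Nat10-ZcKO MII, Oog2 and Oog4 are highest in a GV library, and Obox3 and Obox6, at 0 in every library, are not drawn.

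Levels of different members can be set side by side per length of CDS. In WT GV, Obox1 was at 320 ± 78.4 CPM per kb, Obox2 at 172 ± 21.9, Oog3 at 138 ± 36.7, Obox5 at 31.8 ± 24.7, Oog2 at 19.7 ± 11.4 and Oog4 at 9.18 ± 8.18 CPM per kb (SD, n = 3). In this order Obox1 and Obox2 are near copies whose split is uncertain, Obox2 and Oog3 did not differ beyond their spread, and neither did Obox5, Oog2 and Oog4. In Nat10-ZcKO MII the order was Obox2 (1942 ± 549 CPM per kb), Obox1 (1351 ± 718), Obox5 (440 ± 107), Oog3 (428 ± 42.1), Oog2 (2.82 ± 4.88) and Oog1 (2.72 ± 2.41), with Oog4, Obox3 and Obox6 at 0 (SD, n = 3). Obox2 and Obox1 overlapped in that order, as did Obox5 and Oog3. When a level is taken per kb of windows found in no other CDS, Oog2 (58.1 CPM per kb) and Obox5 (54.7 CPM per kb) changed places in WT GV, and in Nat10-ZcKO MII Oog1 moved to 144 CPM per kb, from 2 counts, above Oog2 at 8.30.

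For the comparison of MII with GV oocytes within Nat10-ZcKO, 4 members passed the filter on low counts, and the other 5 were not tested. Obox1, Obox2 and Obox5 rose, and Oog3 did not pass the threshold. By edgeR's quasi-likelihood test over 6 libraries, the log2 fold change was 4.46 ± 0.93 (SE) for Obox2 (adjusted p = 0.0156), 4.14 ± 1.05 for Obox1 (adjusted p = 0.0256) and 3.44 ± 1.06 for Obox5 (adjusted p = 0.0445). Oog3 had 2.68 ± 0.90 (adjusted p = 0.0577). Of the 2225 genes tested, 9.98% were called higher, and the median change of all genes was -0.12. With 0 counts in at least 1 GV library each, the 4 members tested passed the filter through their MII counts, where they are high, so their number is no support. Obox5 was not called when library size alone was used for scaling (adjusted p = 0.0540 by edgeR), and its adjusted p reached 0.152 over the alternatives. Obox1 was not called without Nat10-ZcKO GV replicate 2 (adjusted p = 0.0524 by edgeR). With a stage term shared by both genotypes over 11 libraries it was not called either (adjusted p = 0.0760 by edgeR), and its adjusted p reached 0.108. Without Nat10-ZcKO GV replicates 1 and 2, the same 4 members were called higher among 19.0% of genes, at 3.92 ± 0.68 for Obox2, 3.34 ± 0.65 for Obox1, 6.26 ± 0.97 for Obox5 and 2.01 ± 0.58 for Oog3. There the lone GV library was assumed to vary like the MII libraries. In that fit Oog2 fell, at -4.19 ± 1.76 (adjusted p = 0.0461 by edgeR), among 19.6% of genes called lower. Without any 1 of the 3 MII libraries, edgeR called 0 genes in this comparison, members included, at 419 to 495 genes with an unadjusted p under 0.05 and a higher level in MII.

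In WT, the comparison of MII with GV turned on the shallow MII library. With both WT MII libraries, 3 members were tested and 0 were called, among 0.293% of 2045 genes called in either direction. Obox2 had a log2 fold change of 2.78 ± 1.32 (SE, adjusted p = 0.202 by edgeR), Oog3 0.74 ± 1.29 and Obox1 0.62 ± 1.25. Without WT MII replicate 2, 4 members were called higher, among 20.9% of genes called higher. Their log2 fold changes were 4.01 ± 0.53 for Obox5, 3.23 ± 0.34 for Obox2, 1.22 ± 0.34 for Oog3 and 1.06 ± 0.34 for Obox1. The lone MII library was assumed to vary like the GV libraries, which alone gave the spread. The order of these 4 changes, with Obox5 and Obox2 ahead of Oog3 and Obox1, rests on 1 MII library. The library left out had 1 Obox count in all.

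With 1 stage term shared by both genotypes and without the 3 libraries that stood apart, a fit chosen after the data were seen, 4 MII and 4 GV libraries entered. The MII libraries were 1 of WT and 3 of Nat10-ZcKO, and the GV libraries were 3 of WT and 1 of Nat10-ZcKO. Stage and genotype are thus unevenly mixed, and the fit assumes the same stage change in both genotypes. The interaction of Obox1 over these 8 libraries was 2.45. Obox5 rose by a log2 fold change of 4.55 ± 0.52 (SE, adjusted p = 2.24e-08 by edgeR), Obox2 by 3.51 ± 0.37 (adjusted p = 5.32e-09), Obox1 by 2.11 ± 0.47 (adjusted p = 0.000434) and Oog3 by 1.60 ± 0.35 (adjusted p = 0.000353). Oog2 fell, at -2.47 ± 0.99 (adjusted p = 0.0350 by edgeR). Among 4029 genes, 25.5% were called higher and 29.5% lower, so a call by itself is common at this step, and the median change was -0.10. The levels of Obox1, Obox2, Obox5 and Oog3 in all 4 MII libraries were above those in all 4 GV libraries, which held for 14.8% of the 8094 genes with at least 10 counts over the 8 libraries. That share includes genes with far fewer counts than these members, so it is no like comparison for them. Among the 2225 genes that passed the filter in Nat10-ZcKO, 28.6% had every MII library above every GV library. In the same fit the oocyte marker list went down, with 12 of 15 markers lower and 2 higher and a median log2 fold change of -3.82. Zp2, a protein of the egg coat, had -5.76 ± 0.38, and Padi6, a component of the subcortical maternal complex, had -4.93 ± 0.38. The list of other oocyte transcription factors had 6 members tested, of which 4 fell and 1 rose, with Nobox at -4.82 ± 0.44, Lhx8 at -4.50 ± 0.55 and Foxo3 at 1.62 ± 0.34. Of 12 granulosa and cumulus markers tested, 4 rose and 5 fell. The cumulus matrix gene Ptx3 had 9.59 ± 0.59 and Amh, made by granulosa cells of growing follicles, had -4.98 ± 0.51. The whole granulosa and cumulus list held 0.251% to 0.50% of the counts in the GV libraries of this fit and 0.170% to 0.477% in the MII libraries. The part of these marker changes in the change of the Obox and Oog levels was not tested.

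**Figure D4:**
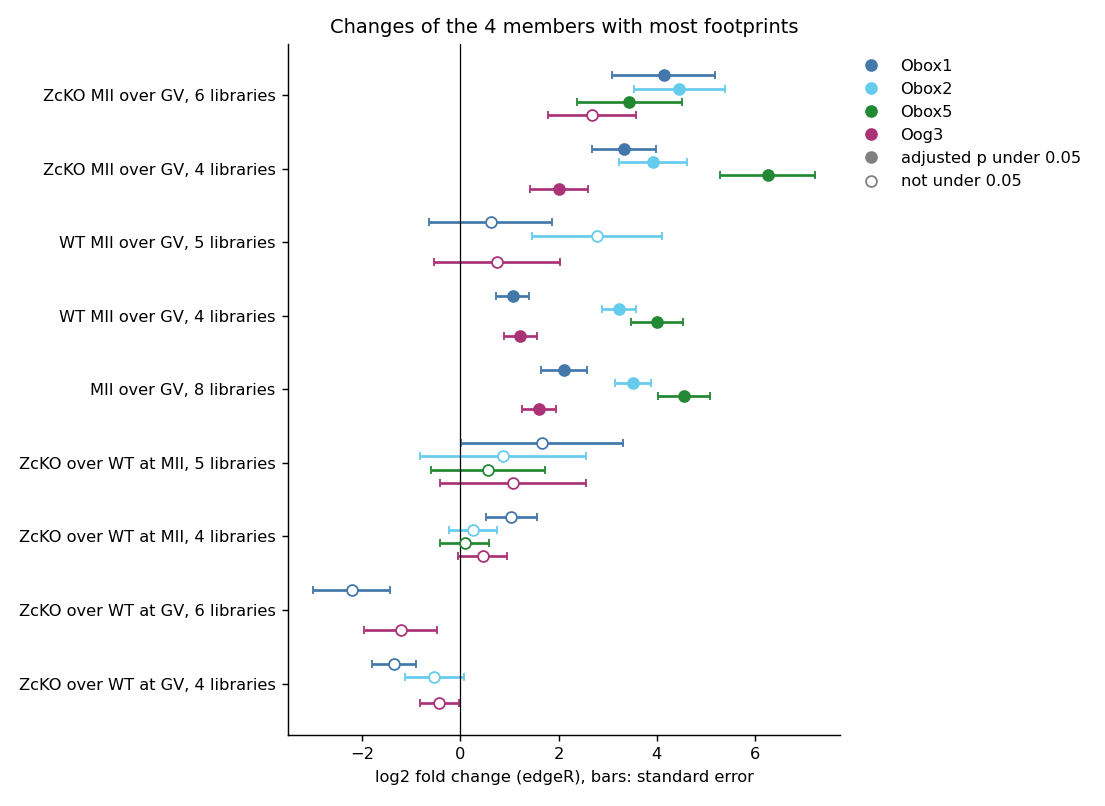
Points give log2 fold changes from edgeR for Obox1, Obox2, Obox5 and Oog3 in 9 fits, with bars of 1 standard error, and filled points have an adjusted p under 0.05. Fits of MII over GV in the upper rows lie above 0, and no genotype fit in the lower rows has a filled point. A missing point is a member that did not pass the filter on low counts in that fit.

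The question of the genotype was put at each stage. In GV oocytes 2 members were tested and 0 were called, and edgeR called 0% of 1765 genes, while 70 genes with a higher and 23 with a lower level had an unadjusted p under 0.05 and DESeq2 called 3. Obox1 had a log2 fold change of -2.21 ± 0.78 (SE) between Nat10-ZcKO and WT (adjusted p = 0.905 by edgeR) and Oog3 had -1.21 ± 0.74 (adjusted p = 0.908). Against WT GV alone, Nat10-ZcKO GV replicate 3, the library of that group with most oocyte marker counts, had Obox1 at 65.0 CPM, below the lowest WT library at 158 CPM. Its fitted log2 fold change for Obox1 was -1.35 ± 0.44, and for Oog3 -0.43 ± 0.40 and Obox2 -0.53 ± 0.60. The lone Nat10-ZcKO library was assumed to vary like the WT libraries, which alone gave the spread, so no call is read from this fit. Oog2, by contrast, was higher in that library (72.2 CPM) than in the WT GV libraries, at 1.31 ± 0.75.

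In MII oocytes 4 members were tested and 0 were called, among 0.191% of 2097 genes called in either direction. The log2 fold change of Nat10-ZcKO over WT was 1.66 ± 1.65 (SE) for Obox1, 1.07 ± 1.49 for Oog3, 0.86 ± 1.69 for Obox2 and 0.57 ± 1.16 for Obox5, where the median of all genes tested was 0.37. Without WT MII replicate 2, these were 1.04 ± 0.52, 0.46 ± 0.50, 0.26 ± 0.49 and 0.09 ± 0.50 in the same order, and the median was 0.10, with the lone WT library assumed to vary like the others. The Nat10-ZcKO libraries were above WT MII replicate 1 for Obox1 and Oog3, while for Obox2 and Obox5 that WT library lay within their range. The share of all genes with such an order was not counted, so it is a description only. The difference of the stage change between genotypes was tested as an interaction over 11 libraries, where 0 of 4 members tested were called among 0.802% of 3863 genes. Obox1 had 4.65 ± 1.99 (adjusted p = 0.707 by edgeR) against a median of 1.04, and without the 3 libraries that stood apart 2.45 ± 0.73 (adjusted p = 0.387) against 0.36.

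The acRIP-seq libraries compare RNA fragments recovered with anti-ac4C and with anti-IgG. They held 970997 and 116232 counts, and the ratio of CPM between them has no replicate check. Obox1 had 369 counts with anti-ac4C and 13 with anti-IgG, or 380 and 112 CPM, a ratio of 3.40 with an exact 95% interval of 1.96 to 6.44. Obox2 had 664 and 59 counts (ratio 1.35, interval 1.03 to 1.79) and Obox5 418 and 42 counts (ratio 1.19, interval 0.866 to 1.68). The interval of Obox1 lay above those of Obox2 and Obox5, its near copies by sequence. Whether and how fragments that match more than 1 of them enter these ratios is not given in the sources used here. Over both libraries 0 alignments were listed as not unique, which does not tell whether such fragments were dropped before counting. Among the oogenesins, Oog3 had 614 and 96 counts (ratio 0.766, interval 0.617 to 0.960), Oog2 90 and 12 (0.898, interval 0.490 to 1.80) and Oog4 26 and 8 (0.389, interval 0.171 to 0.994). Oog1 was the lowest of the members, at 52 counts with anti-ac4C and 63 with anti-IgG, or 53.6 and 542 CPM, a ratio of 0.0988 with an interval of 0.0671 to 0.145. Among 4680 genes with at least 50 counts over both libraries, 0.0855% had a lower ratio than Oog1, and the median ratio was 1.27. The genes that share most CDS windows with Oog1 had higher ratios. Gm2042 was at 0.613 (interval 0.356 to 1.12), Gm10436 at 0.815 (0.610 to 1.11), Gm13023 at 0.434 and C87977 at 0.270. Since 1.92% of the CDS windows of Oog1 are in no other CDS, its ratio depends on how shared fragments were counted. Obox3 and Obox6 had 0 counts in both libraries, which allows up to 2.76 CPM over both.

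With a ratio above 2 taken as enriched, 1 member, Obox1, was past the threshold, while 53.3% of the 11883 genes with a count in either library were. That share includes every gene with no anti-IgG count and at least 1 CPM with anti-ac4C, so it is no like comparison for the members. Among the 4680 genes with at least 50 counts over both libraries, the median ratio was 1.27 and 79.6% were below Obox1. Obox3 and Obox6, without counts, have no ratio. The intervals cover counting error only, and PCR copies of a fragment are not independent molecules. Fragments on no annotated feature were 46.7% of the anti-IgG library and 17.1% of the anti-ac4C library.

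**Figure D5:**
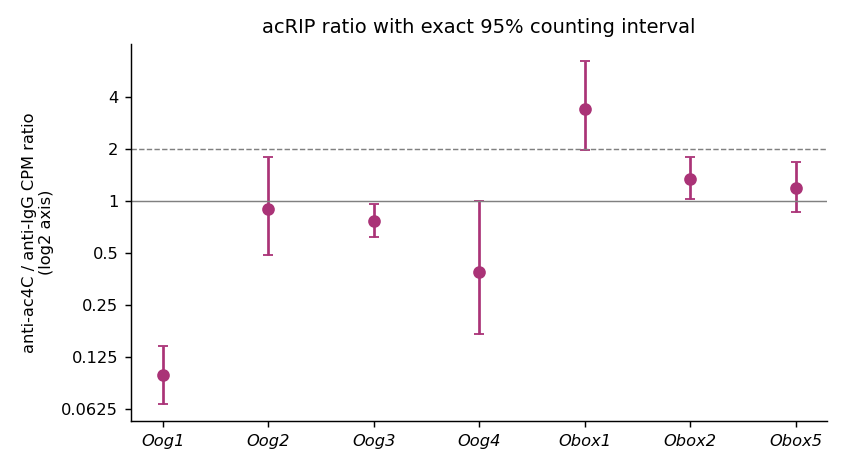
Points give the ratio of CPM with anti-ac4C to CPM with anti-IgG in WT GV oocytes on a log2 axis, with exact 95% intervals of the counting error. The dashed line is a ratio of 2 and the solid line a ratio of 1. Obox1 is above 2, at 3.40, and Oog1 is at 0.0988.

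The anti-IgG counts give no more than a rough view of the mRNA in GV oocytes. They come from a control pull-down of fragmented mRNA and not from the input mRNA, so a ratio to them is not a translation efficiency. Oog1, with 0 RPF counts in the WT GV libraries, had 63 fragments with anti-IgG, or 542 CPM, and sequence shared with its near copies bears on both counts. RPF level in WT GV divided by the anti-IgG level gives a rough ratio of footprints to fragments, although the first counts the CDS and the second the protein-coding gene. This ratio was 0.0769 for Obox5, 0.153 for Obox2, 0.251 for Oog3, 0.283 for Oog2 and 1.75 for Obox1. Over 3035 genes with at least 10 anti-IgG counts the median was 0.282, and 19.0% of genes were below Obox5, 33.3% below Obox2 and 94.1% below Obox1. Obox1 rests on 13 anti-IgG counts and on the split of reads with Obox2. RNA levels in MII were not analysed here.

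Because CPEs are known to act in maturing oocytes, the last 100 bases of the 3′ UTR were searched on the transcript strand for the CPE motifs TTTTAT and TTTTAAT and for the polyadenylation signals AATAAA and ATTAAA. Obox1 and Obox2 each had 2 TTTTAT motifs, and the nearer one ended 17 bases before the first signal. Their sites are printed with the motifs in capitals to show that both genes carry the same letters. The last capital belongs to AATAAA, which overlaps ATTAAA and runs past the 30 bases.
Obox1: TTTTATtgttagagtatatgttcATTAAAT
Obox2: TTTTATtgttagagtatatgttcATTAAAT
Oog3: tAATAAAtgtgttaactttgTTTTATtttt
Oog1: TTTTATgagactggcccaatctgttgactg
The sites lie on chr7:15556811-15556840 (plus strand), chr7:15398490-15398519 (plus), chr4:144157557-144157586 (minus) and chr12:87608791-87608820 (plus). In Oog3 the TTTTAT lies after the signal, at the annotated end of the transcript, and in Oog1 it ends 29 bases before it. Obox5, Oog2, Oog4, Obox3 and Obox6 had a signal and neither CPE motif in this window. Among 20156 genes with a 3′ UTR of at least 100 bases, 17.6% had a CPE motif in the window, 78.1% a signal and 14.2% both. A match, or its absence from this window, is a description of letters, and its bearing on the RPF levels was not tested.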

How the data were processed

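Ribo-seq and acRIP-seq counts were used as deposited. The authors deposited whole-number counts without normalization, per gene on the CDS for 11 Ribo-seq libraries and on protein-coding genes for 2 acRIP-seq libraries, 1 library each and not pooled. The labels name cutadapt, STAR, HTSeq and mm10 without role or version, and the handling of rRNA, PCR copies and reads with several matches is not given in the sources used here. Of 22442 identifiers, 21765 matched the GENCODE M21 names with version, 634 without it and 43 not at all. Summary rows were left out of library sizes. Depth was 4815 to 279464 counts per Ribo-seq library, so a count of 0 (limit 3 counts) allows 10.7 to 623 CPM.

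Each comparison was fitted over all genes with edgeR 4.0.16 (R 4.3.3): filterByExpr, TMM, glmQLFit with a prior count of 0.125, glmQLFTest, Benjamini-Hochberg adjustment and a threshold of 0.05. SE is the log2 change over the square root of F. Fits held the groups compared, or 11 libraries for the interaction, and steps were tested on simulated data. DESeq2 1.42.0, other scalings, no filter, 11 libraries in 1 fit, a replicate block and left-out libraries were alternatives, and 2 fits with a shared stage term were added after the data were seen. Ratios have exact (Clopper-Pearson) 95% intervals (scipy 1.17.1, Python 3.11.15). CDS windows of 30 bases, identity and 3′ UTR letters were read from GRCm38. The members, lists and tests were chosen with earlier results of these data known. Besides the members, the text names Nat10, up to 4 genes per list by mean CPM over the libraries, genes that share CDS windows with a member, and the 3 genes nearest in profile to each family. Protein sequences were not analysed here.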

Additional observations from a re-analysis of the deposited data

How the results depend on the processing

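The Ribo-seq tests rest on few libraries, and 1 of them can decide a count of calls. The number of members called was 3 for Nat10-ZcKO MII against GV, and 5 both without Nat10-ZcKO GV replicates 1 and 2 and with a stage term shared by both genotypes over 8 libraries. Leaving out 1 library at a time gave 0 to 4 members, and the 0 came from each Nat10-ZcKO MII library, without which edgeR called 0 genes. For WT MII against GV, 0 members were called, but 1 by DESeq2, 1 with library size only, and 2 or 5 with the shared stage term over 11 or 8 libraries, and 0 to 4 with 1 library left out. The counts were 0 for the GV genotype (0 to 1 with 1 library left out), 0 for the MII genotype (0 to 4) and 0 for the interaction (0 to 4). The highest counts of the last 2 came without WT MII replicate 1, which leaves the shallow library as the WT MII group.

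Direction changed in 3 fitted changes, those of WT MII against GV, and in both WT family ratios given below. Obox1 was at -0.16 by DESeq2, -0.61 with the replicate block and -7.76 without WT MII replicate 1, Oog3 at -0.043, -0.56 and -7.83 under the same settings, and Obox2 at -1.84 without WT MII replicate 1. Without WT MII replicate 2 they were at 1.06, 1.22 and 3.23 in the order Obox1, Oog3 and Obox2. DESeq2 put the median change of all genes at -1.58 there, against -0.67 in edgeR. With 1 library left out, the log2 changes in Nat10-ZcKO MII against GV were 4.07 to 6.57 for Obox2, 3.72 to 9.67 for Obox1, 2.96 to 6.37 for Obox5 and 2.24 to 4.65 for Oog3. Correlations of same-numbered deviations from group means were -0.05 to 0.00 in GV and -0.02 and 0.14 in MII. The deviations of WT MII replicates 1 and 2 mirror each other, and groups are small, so these values cannot tell whether replicate numbers paired the libraries. With the replicate block, 4 members were called in Nat10-ZcKO MII against GV, where Oog3 passed at 3.28, and 0 in the other comparisons.

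For the summed families, log2 ratios of mean CPM in MII over GV were 4.64 (Obox) and 2.71 (Oog) in Nat10-ZcKO and 1.44 (Obox) and -0.08 (Oog) in WT. Per 1000 oocyte-marker counts they were 4.53 for Oog in Nat10-ZcKO, and 7.31 for Obox and 2.64 for Oog in WT, where WT MII replicate 2 has 1 marker count. With 1 library left out they ranged over 4.06 to 5.18 and 2.13 to 4.07 in Nat10-ZcKO, and over -0.54 to 2.24 and -0.16 to 0.92 in WT, Obox first. The last range leaves out the case without WT MII replicate 1, where the remaining WT MII library has 0 Oog counts and the ratio has no lower end. Members above an ac4C ratio of 2 were 6 without scaling to library size, and 0 with the lower 95% bound. The cause of these differences was not tested, apart from the libraries left out.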

Other observations

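Other relatives of the families were measured too. Of 14 further Oog, Obox, Pramel and Pramef genes in the tables, 9 had no RPF count in any library. Obox7, another maternal homeobox gene, shares 22.9% of the CDS windows of Obox5, and had 1 count over the WT GV libraries and 7, 9 and 14 counts in Nat10-ZcKO MII. In the 8-library fit it rose by a log2 fold change of 3.58 ± 1.17 (SE, adjusted p = 0.0109 by edgeR). Pramef12, the PRAME relative with most RPFs, was at 210 ± 85.8 CPM in Nat10-ZcKO MII against 570 ± 47.4 CPM at GV of WT and 191 ± 238 CPM at GV of its own genotype (SD, n = 3 each). It fell in the 8-library fit, at -1.35 ± 0.31 (adjusted p = 0.00066 by edgeR), and had -0.55 ± 0.98 (adjusted p = 0.689 by edgeR) over the 6 Nat10-ZcKO libraries. Members of the PRAME family include Oog3, which rose in the 8-library fit, and Oog2 and Pramef12, which fell. Pramef20 had 119 fragments with anti-ac4C and 0 with anti-IgG, and its RPF counts were 7, 4 and 6 in the GV libraries of WT.

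The genes whose level over the 11 libraries followed a family most closely were listed by the root mean square difference of centred log2(CPM + 10) profiles, among genes with at least 200 counts. For the Oog sum they were Nlrp4a (0.32), Bin2 (0.37) and Plekhg1 (0.44), where the median over 1100 genes was 1.77. For the Obox sum they were Tbc1d15 (0.43), Accsl (0.51) and Tubb3 (0.54), where the median over 1098 genes was 2.40. Depth and the 3 libraries that stood apart are shared by every profile.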
